A study of Mus musculus with 18 samples.

Results

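Carbonic anhydrases are the enzymes that interconvert carbon dioxide and bicarbonate with release of a proton. The 10 family members described here, Car1, Car2, Car3, Car4, Car7, Car8, Car9, Car12, Car13 and Car14, were followed among 43432 gene identifiers in sorted mouse intestinal stem cells with and without Dlg1. The family was chosen by the higher Car4 counts of the knock-out at 2 days, so the members' differences between genotypes at 2 days are given as a description without a test. There were 4 wild-type and 4 Dlg1 conditional knock-out libraries at 2 days (48 hours) after tamoxifen, and 5 of each genotype at 14 days. Mice of both genotypes were 8 to 16 weeks old and all had received tamoxifen, the drug used to induce a conditional deletion, and 5000 to 10000 cells were sorted per library. Dlg1 encodes a membrane-associated scaffold that takes part in epithelial cell polarity. Neither the Cre line, the allele nor the sorting gate is given in the sources used here.

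In the gut these enzymes supply bicarbonate and protons to the ion exchangers of the epithelium. Car1, Car2, Car3, Car7 and Car13 are cytosolic, and Car2 is among the fastest enzymes known. Car4 is tethered to the outer face of the plasma membrane by a lipid anchor and lines the surface of absorptive cells, while Car9, Car12 and Car14 span the membrane with the catalytic domain outside. Car8 is a carbonic anhydrase-related protein that has lost catalytic activity. Transcription of Car9 is a classic response to low oxygen.

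The 250 bases upstream of the RefSeq start sites of the 3 membrane-bound members with the highest counts are shown because their RNA levels behaved differently across the groups. They are read 5′ to 3′ on the plus strand of GRCm38.p6. Capitals mark 2 motifs searched on both strands, which do not overlap each other, the core of the hypoxia response element (ACGTG, or CACGT on the other strand) and a core of the TCF/LEF element of Wnt signalling (CTTTGA, or TCAAAG). Car4 lies at chr11:84957504-84957753, Car9 at chr4:43506776-43507025 and Car12 at chr9:66713436-66713685.
Car4: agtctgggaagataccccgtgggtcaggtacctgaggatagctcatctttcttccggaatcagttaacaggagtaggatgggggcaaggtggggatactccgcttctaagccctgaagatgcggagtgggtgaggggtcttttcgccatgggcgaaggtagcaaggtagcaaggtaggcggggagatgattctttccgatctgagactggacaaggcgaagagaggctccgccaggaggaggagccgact
Car9: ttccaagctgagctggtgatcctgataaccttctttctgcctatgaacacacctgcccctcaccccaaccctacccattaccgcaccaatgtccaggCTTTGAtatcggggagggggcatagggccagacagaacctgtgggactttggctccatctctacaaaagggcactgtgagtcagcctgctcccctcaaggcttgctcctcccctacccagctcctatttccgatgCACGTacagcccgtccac
Car12: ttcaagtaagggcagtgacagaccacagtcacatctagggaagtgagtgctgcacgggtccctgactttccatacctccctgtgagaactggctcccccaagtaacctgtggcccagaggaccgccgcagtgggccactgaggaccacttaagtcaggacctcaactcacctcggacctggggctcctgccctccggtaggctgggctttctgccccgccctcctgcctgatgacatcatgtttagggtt
The Car9 window held 1 match to each core, and those of Car4 and Car12 held 0 of either. Of 32851 RefSeq windows of this length, 16.6% held the hypoxia core and 13.8% the TCF/LEF core. A match is a run of letters and not a tested binding site. Of the 10 members, 5 had an entry in this table, the others named here being Car7 and Car14. The Car14 window, not shown, also held 1 match to the hypoxia core and 0 to the TCF/LEF core. The Car7 windows held 0 of either.

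Dlg1 itself does not separate the libraries in these gene-level counts. It averaged 45.7 ± 8.49 CPM (the count of a gene per 1000000 counts of its library after scaling) in the knock-out and 59.4 ± 9.18 CPM in wild type at 2 days (SD, n = 4 each), with overlapping ranges of 38.4 to 58.0 and 48.3 to 69.5 CPM. At 14 days the knock-out libraries ran from 41.8 to 100.8 CPM and the wild-type libraries from 60.5 to 85.8 CPM, and the highest of all was knock-out library 5. The differences did not pass (adjusted p = 0.866 at 2 days and 0.957 at 14 days, edgeR). The deleted exons are not given, and transcripts that lack them can still be counted, so genotypes rest on the labels and "knock-out" means labelled so throughout.

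Libraries held 14.8 to 40.5 M counts at 2 days and 11.1 to 15.7 M at 14 days. Wild-type library 1 at 2 days stood apart, with the most counts, 49.1% of them mitochondrial, and a scaling factor of 0.682. Knock-out library 5 at 14 days had a factor of 0.632, where those of the other libraries of that time were 0.83 to 1.23. All 13 stem cell markers listed were detected in every group, and Lgr5, the receptor that marks crypt base stem cells, averaged 222 CPM in wild type at 2 days and 79.9 CPM at 14 days. These CPM are scaled within each time. Each time was deposited as a separate table, so time cannot be told apart from table. In such sorted bulk samples, fewer cells of a type and less RNA per cell cannot be told apart.

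Car4, Car8, Car9, Car12 and Car13 carried nearly all counts of the family, with at least 54 in every library. Levels can be compared between genes only per length, here as CPM per kb of merged exons. In wild type at 2 days, Car9 led at 44.7 ± 11.2 CPM per kb (SD, n = 4 throughout this time). Car13, Car8 and Car12 followed at 19.99 ± 5.19, 17.4 ± 2.83 and 16.6 ± 3.74 CPM per kb, within their spread of each other. Car4 was far lower at 3.08 ± 1.61 CPM per kb. In the knock-out at 2 days the order was Car9 at 39.5 ± 6.53, then Car8, Car12, Car13 and Car4 between 19.6 ± 3.34 and 13.1 ± 4.23 CPM per kb, so the level of Car4 lay close to the cytosolic and catalytically inactive members.

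In wild type at 14 days the order differed. The lead was held by Car4 at 54.5 ± 9.31 and Car9 at 51.6 ± 7.76 CPM per kb (SD, n = 5 throughout this time), which did not differ beyond their spread. Car13, Car12 and Car8 stood at 9.77 ± 2.08, 7.495 ± 1.89 and 6.90 ± 0.858 CPM per kb. The knock-out at 14 days had the same pair in front, Car4 at 61.2 ± 37.2 and Car9 at 44.7 ± 7.80 CPM per kb. The remaining members reached at most 1.27 CPM per kb in any group mean, the value of Car2 in wild type at 14 days.

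**Figure D1:**
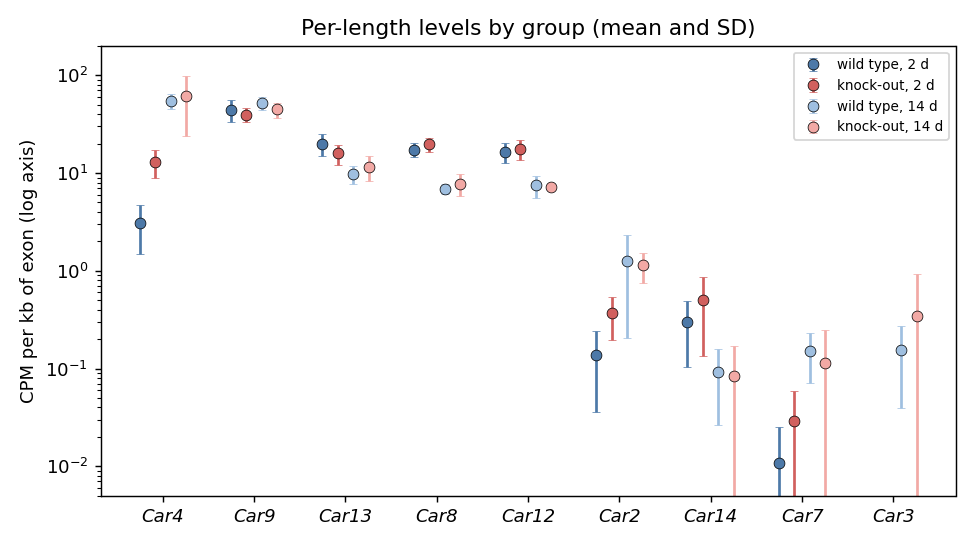
Level of 9 carbonic anhydrases in CPM per kb of exon (log axis), as group mean and SD, for wild type and Dlg1 knock-out at 2 days (n = 4 each) and 14 days (n = 5 each); groups without a count are not drawn, bars that pass the lower limit are cut there, and Car1 is left out. Car4 ranks 5 in both 2 day groups and level with Car9 in both 14 day groups.

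Car4 (ENSMUSG00000000805, chromosome 11, 84957786 to 84966044, plus strand, GRCm38) was low in wild type at 2 days, where libraries 1 to 4 gave 1.96, 8.96, 5.24 and 8.09 CPM. Knock-out libraries 1 to 4 held 27.6, 14.9, 25.2 and 35.1 CPM. Every knock-out library lay above every wild-type library, and the group means were 25.7 ± 8.32 and 6.06 ± 3.17 CPM (SD, n = 4 each). Raw counts were 455 to 571 per knock-out library and 54 to 181 per wild-type library. The fitted log2 difference was 2.08 ± 0.43 (SE), or 4.24-fold. It ranged from 1.78 to 2.34 when each library was left out in turn, with 1.78 without wild-type library 1. This is the value that chose the family.

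At 14 days Car4 did not separate the genotypes. Wild-type libraries 1 to 5 held 121, 92.6, 132, 90.6 and 99.5 CPM. Knock-out libraries 1 to 5 held 239.8, 106, 120, 95.6 and 41.1 CPM, so the knock-out had both the highest and the lowest library and the groups overlapped. The means were 120.3 ± 73.1 against 107 ± 18.3 CPM (SD, n = 5 each, exact p = 0.921, from two-sided permutation of libraries as for all exact p here). Each exact p is for the difference in mean log2(CPM + 0.5), which is neither the printed CPM means nor the edgeR log2 difference and can differ from them in sign. The log2 difference was 0.17 ± 0.33 (SE), with an edgeR adjusted p of 0.967. It was -0.24 without knock-out library 1. The column names of this table carry a letter whose meaning the labels do not give, and the value was 0.68 ± 0.38 (SE) among the 2 libraries of each genotype with B and -0.33 ± 0.35 (SE) among the 3 with J. Whether the genotype effect differs between times was not tested, since the 2 day effect chose the gene.

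**Figure D2:**
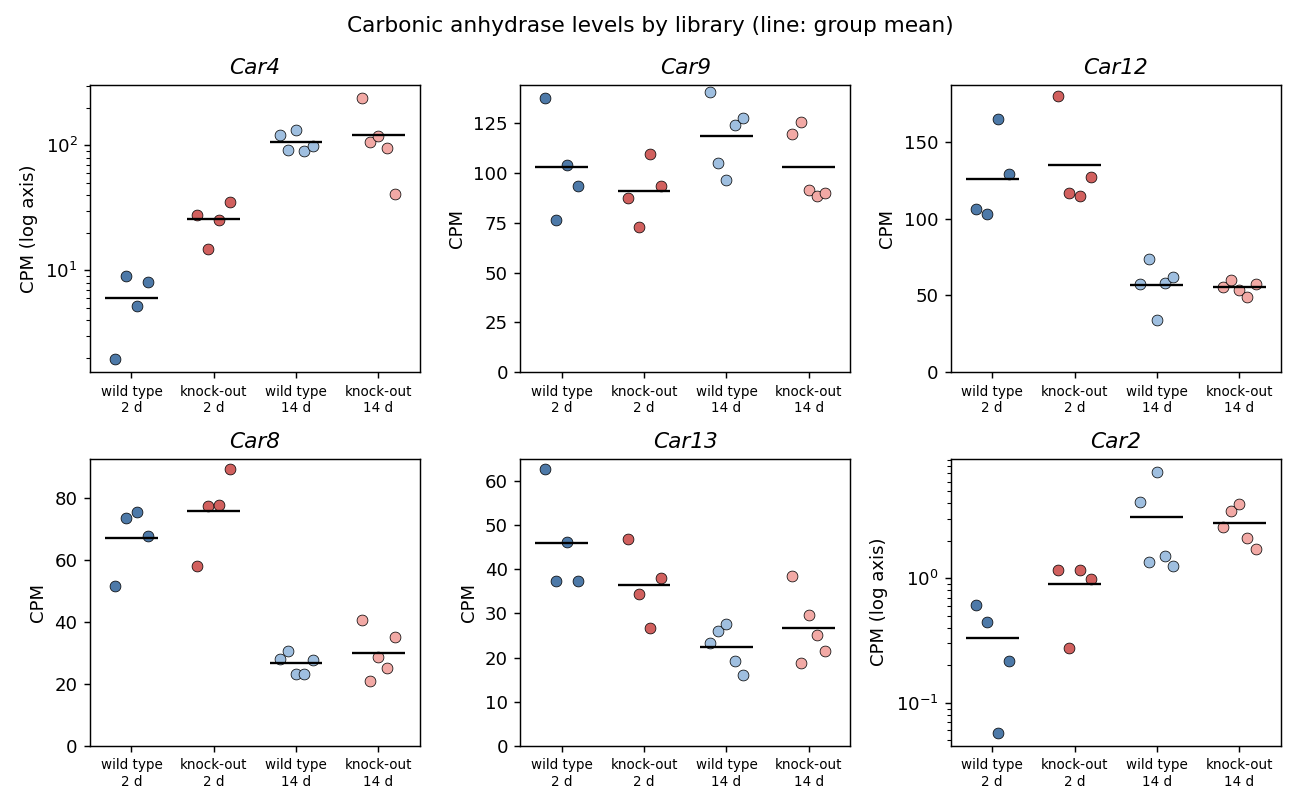
CPM of the 6 carbonic anhydrases with the most counts, 1 point per library in table order and a line at the group mean, for wild type and Dlg1 knock-out at 2 and 14 days (log axes for Car4 and Car2, linear from 0 for the others). At 2 days the Car4 points of knock-out, 14.9 to 35.1, lie above those of wild type, 1.96 to 8.96, while the 14 day groups overlap in each panel.

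Enterocyte markers had higher values beside Car4 at 2 days, without a call. The summed level of 16 enterocyte markers, all of them detected, was 1732 to 2426 CPM in wild type and 1848 to 6300 CPM in the knock-out, and each of the 16 had a positive log2 fold change, with a median of 1.33 against 0.01 over all genes. Of the 16, edgeR called 0 after adjustment and 9 had an unadjusted p under 0.05, against 4.91% of all genes. Knock-out libraries 1 and 4 held 6300 and 2824 CPM of these markers. Knock-out libraries 2 and 3 held 1872 and 1848 CPM, inside the wild-type range, with Car4 at 14.9 and 25.2 CPM, above all wild-type libraries. In both of these libraries 2 of the 16 markers also exceeded all of wild type, the lipid transfer protein gene Mttp at 80.8 and 79.1 CPM and the fructose transporter gene Slc2a5 at 6.18 and 5.53 CPM. Summed goblet markers in libraries 2 and 3 were 1351 and 1054 CPM, above the wild-type range of 513.2 to 685.2 CPM. Knock-out libraries 1 and 4 held 490.1 and 681.7 CPM of goblet markers. Of 9 goblet markers that passed the filter 8 had a positive fold change, 2 had an unadjusted p under 0.05 and edgeR called 0. Tuft markers summed to 73.4 CPM in library 2 and 11.2 CPM in library 3, against 8.46 to 33.4 CPM in wild type.

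Of 12 distal colon surface markers 9 were detected in wild type and 10 in the knock-out at 2 days, and their sums were 136.3 to 244.5 CPM in the knock-out and 107.4 to 126.6 CPM in wild type, with Aqp8 and Scnn1g at 0 in both. Most of these sums came from Slc20a1, Slc26a3 and Krt20, the last also an enterocyte marker. Their means were 56.7, 28.6 and 44.8 CPM in the knock-out and 49.4, 21.4 and 20.0 CPM in wild type. Of the 8 colon markers that passed the filter 7 had a positive and 1 a negative log2 value. The negative value was that of Mptx1, at means of 0.62 and 4.685 CPM in the same order. An unadjusted p under 0.05 was met by 1 marker in each direction, against 4.91% of all genes. The 13 stem cell markers summed to 4866 to 5670 CPM in the knock-out and 5823 to 6302 CPM in wild type, ranges that did not overlap. Most of that sum was Olfm4, at means of 2432 and 2953 CPM, and Slc12a2, at 1289 and 1557 CPM. Of the 13 markers 4 had a positive and 9 a negative log2 value, with a median of -0.13, and 0 had an unadjusted p under 0.05. Endothelial cells also carry Car4. Of 7 endothelial markers 3 were detected in wild type and 5 in the knock-out, summed to 7.02 to 16.4 CPM over the 8 libraries. Most of that sum was Esam, at means of 10.3 CPM in wild type and 7.37 CPM in the knock-out. In the same order Pecam1 averaged 0.83 and 0.39 CPM and Vwf 0.47 and 1.09 CPM. Kdr and Tek had counts in the knock-out only, at up to 0.0278 and 0.50 CPM. Cdh5 and Cldn5 were at 0 in both genotypes. The part of enterocyte, goblet, tuft, colon, stem cell and endothelial markers in the Car4 difference was not tested.

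At 14 days wild-type library 3 had the most enterocyte markers, 7311 CPM, with Car4 at 132 CPM. Knock-out library 1 had 4965 CPM, the highest sum of distal colon markers (920.6 CPM) and of goblet markers (14310 CPM), and the highest Car4 (239.8 CPM). Most of that distal colon sum was Guca2a, at 599.6 CPM. The colon markers Aqp8, Scnn1b and Scnn1g were at most 1.55, 0.23 and 0.71 CPM in any knock-out library at this time. Of the 16 enterocyte markers 15 had a negative fold change at this time, with a median of -0.40. Their part in the Car4 values of single libraries was not tested.

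**Figure D3:**
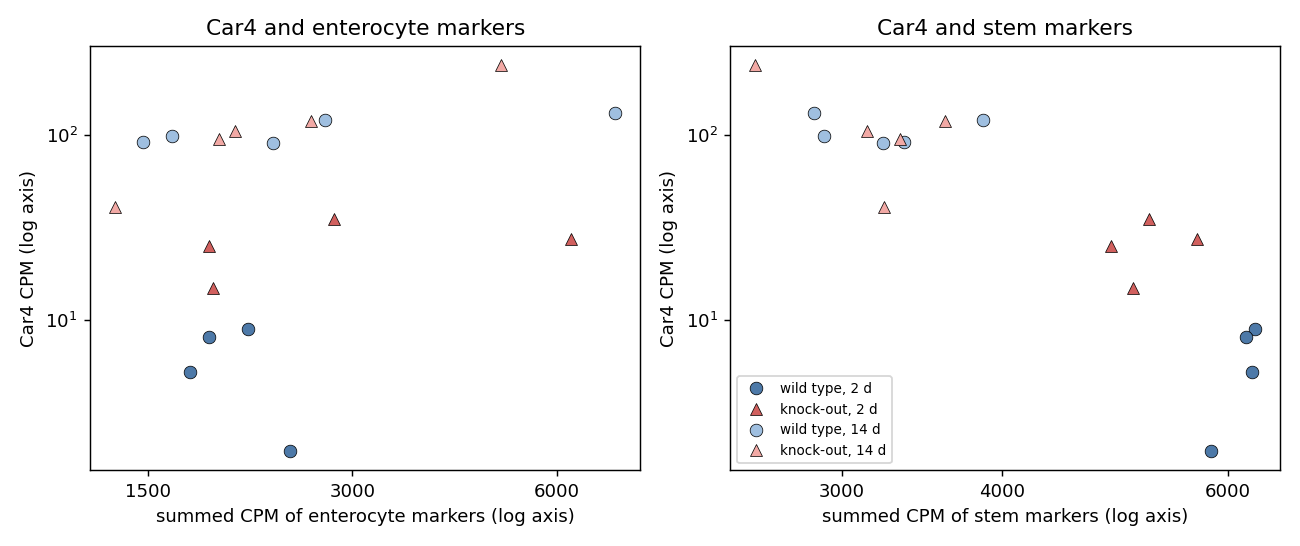
Car4 CPM against the summed CPM of 16 enterocyte markers (left) and 13 stem cell markers (right), 1 point per library and log axes throughout. Knock-out libraries at 2 days with 1848 and 1872 CPM of enterocyte markers lie within the wild-type range on the left axis and above it in Car4, and the 2 day genotypes do not overlap in the stem cell sum.

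The other membrane-bound enzymes did not follow Car4. Car9 (ENSMUSG00000028463, chromosome 4, 43506966 to 43513729, plus strand) gave 137.8, 76.3, 104 and 93.6 CPM in the wild-type samples at 2 days and 87.4, 73.1, 109.4 and 93.6 CPM in knock-out libraries. The groups overlapped, with a log2 difference of -0.18 ± 0.199 (SE). At 14 days wild-type libraries held 140.9, 105, 96.4, 124 and 127 CPM and knock-out libraries 119.7, 125.5, 91.5, 88.5 and 90.1 CPM. Here 3 of 5 knock-out values were lower than any in wild type, and the log2 difference of -0.21 ± 0.15 (SE) did not pass (exact p = 0.198). Those 3 were the knock-out libraries with the letter J. The Car9 log2 difference was -0.37 ± 0.18 (SE) among libraries with J and -0.03 ± 0.24 (SE) among those with B. A gene model on the other strand, Gm12454, overlaps Car9 exons, and without a known strand setting their reads cannot be told apart.

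Car12 (ENSMUSG00000032373, chromosome 9, 66713686 to 66766845, plus strand) is a membrane-spanning enzyme of secretory and absorptive epithelia. Wild-type libraries held 106, 103, 164.6 and 129 CPM and knock-out libraries 179.8, 116.9, 114.7 and 127 CPM. The groups overlapped, the log2 difference being 0.10 ± 0.201 (SE), or -0.08 without knock-out library 1. At 14 days the values were 57.1, 73.5, 34.1, 58.3 and 61.8 CPM in wild type and 55.5, 60.1, 53.2, 49.2 and 57.5 CPM in the knock-out. The groups overlapped and the log2 difference was -0.05 ± 0.18 (SE) (exact p = 0.984).

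Car14, the remaining membrane-spanning member, was scarce. It had 3 to 22 raw counts in wild-type and 8 to 52 in knock-out libraries at 2 days, or 0.76 ± 0.499 and 1.27 ± 0.926 CPM (SD, n = 4 each), with overlapping groups and a log2 difference of 0.74 ± 0.84 (SE). At 14 days it had 0 to 7 raw counts and did not pass the filter on low counts. Exons of Aph1a on the other strand overlap Car14.

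Among the cytosolic members, Car13 (ENSMUSG00000027555, chromosome 3, 14641727 to 14663002, plus strand) was the only one above 10 CPM. Wild-type libraries held 62.8, 37.4, 46.2 and 37.5 CPM at 2 days and knock-out libraries 46.9, 34.5, 26.7 and 38.0 CPM. The groups overlapped, with a log2 difference of -0.33 ± 0.23 (SE), or -0.15 without wild-type library 1. At 14 days wild type held 23.4, 26.0, 27.6, 19.3 and 16.0 CPM and the knock-out 38.4, 18.8, 29.6, 25.0 and 21.5 CPM. The log2 difference then had the other sign, 0.25 ± 0.22 (SE), and did not pass (exact p = 0.349).

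Car1, Car3 and Car2 lie next to Car13 on chromosome 3, between 14766216 and 14900770. Car2 had 1 to 17 raw counts in wild-type and 10 to 24 in knock-out libraries at 2 days, or 0.62, 0.45, 0.06 and 0.22 against 1.17, 0.28, 1.16 and 0.98 CPM. Of the knock-out libraries 3 of 4 exceeded every wild-type library, at counts that did not pass the filter. At 14 days Car2 held 1.25 to 7.195 CPM in wild type and 1.71 to 3.97 CPM in the knock-out, with medians of 1.51 and 2.58 CPM and a log2 difference of -0.13 ± 0.52 (SE) (exact p = 0.857). That value was 0.43 without wild-type library 3, the library with the most Car2.

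Car1, the cytosolic form of red cells and colon, and Car3, the form of fat and muscle, had 0 counts in all 8 libraries at 2 days. With a limit of 3 counts this allows up to 0.0740 to 0.2025 CPM on unscaled totals of a library, for counting error alone. At 14 days Car1 had 5 counts in all, 4 of them in wild-type library 2 and 1 in wild-type library 4. Car3 had 1 to 14 counts in wild type and 2 to 3 in knock-out libraries 1 to 4, but 28 counts in knock-out library 5, the library that stood apart. Of 8 red cell markers at most 6 were detected in any group, summed to 0.67 to 3.76 CPM over all libraries, with Hba-a2 at 0 in all 4 groups. The fat marker Adipoq and the muscle marker Ckm were at 0 at 2 days and had 6 and 4 counts, 0.856 and 0.571 CPM, in knock-out library 5 at 14 days. Of the 10 fat and muscle markers 5 were highest in that library among all 10 libraries of that time, each with at most 6 counts. The more abundant fat gene Cidec, at 13.1 CPM there, and muscle gene Acta1, at 109.1 CPM, lay within the wild-type range. Summed markers of stroma and smooth muscle reached 18.7 CPM in that library against 4.46 to 8.63 CPM in the others. The part of such cells in its Car3 counts was not tested. Car7, a cytosolic form best known from neurons, had 0 to 9 counts at 2 days and 1 to 17 at 14 days.

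Car8 (ENSMUSG00000041261, chromosome 4, 8143362 to 8239041, minus strand), the inactive relative, is known for binding an inositol trisphosphate receptor in Purkinje cells. It held 51.4, 73.5, 75.3 and 67.7 CPM in wild-type and 58.1, 77.4, 77.7 and 89.1 CPM in knock-out libraries at 2 days. The upper 3 of 4 knock-out values exceeded all of wild type while the groups overlapped, with a log2 difference of 0.17 ± 0.18 (SE). At 14 days the ranges were 23.2 to 30.7 CPM in wild type and 20.8 to 40.5 CPM in the knock-out, with medians of 27.8 and 28.6 CPM. The log2 difference was 0.17 ± 0.19 (SE), and did not pass (exact p = 0.437).

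Counted over the family at 14 days, 6 of the 10 members passed the filter on low counts, with 3 fold changes above 0 and 3 below, and a median of 0.06 against 0.01 over all 13991 genes tested. edgeR called 0 members after adjustment, with adjusted p of 0.957 to 0.988, where 0% of all genes were called and the smallest adjusted p of any gene was 0.145. At an unadjusted p under 0.05 there were 0 members against 3.99% of all genes, and DESeq2 called 0 members. In 0 of the 6 members that passed the filter did the groups fail to overlap, against 0.529% of all genes tested and 0.272% with the knock-out higher. The groups also overlapped for Car1, Car3, Car7 and Car14, which did not pass. The smallest of the 10 exact p was that of Car9. At 2 days 6 members passed the filter and 1 of them, Car4, had groups that did not overlap, beside 3.98% of the 13031 genes tested and 2.03% with the knock-out higher. That contrast chose the members.

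**Figure D4:**
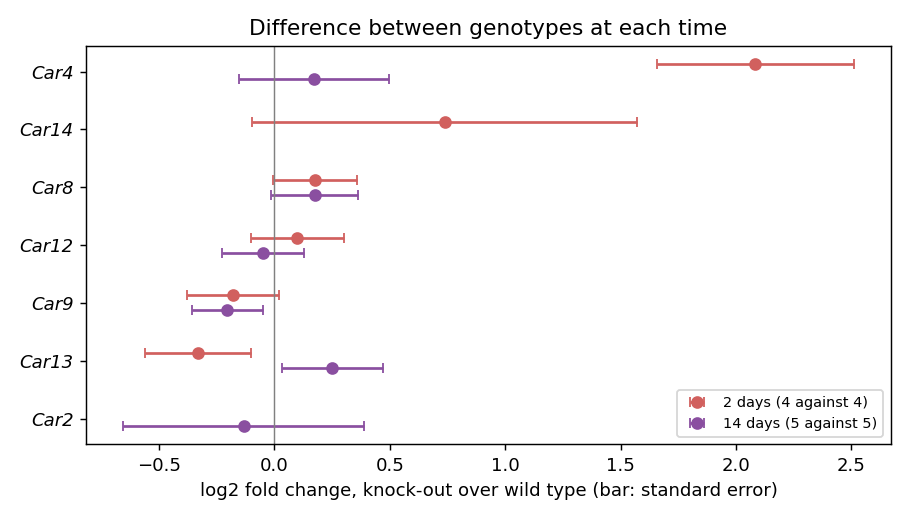
Log2 fold change of knock-out over wild type with its standard error, for the 7 carbonic anhydrases that passed the filter at 2 days (4 against 4 libraries) or 14 days (5 against 5); Car14 passed at 2 days only and Car2 at 14 days only. Car4 stands at 2.08 at 2 days and at 0.17 at 14 days, and the other members lie between -0.33 and 0.74.

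Between the times, Car8, Car12 and Car13 were lower in wild type at 14 days. They and Car9 are the 4 members other than Car4 that passed the filter on low counts at each time, and in 1 fit of all 18 libraries edgeR called 3 of the 4 after adjustment, all lower. Over all 15458 genes 53.4% were called, 25.7% lower and 27.7% higher, with a median log2 fold change of 0.12, so a call in this comparison is common. Car8 went from 79.3 ± 12.96 to 23.4 ± 2.87 CPM on the scale of that fit (SD, n = 4 and 5), a log2 change of -1.76 ± 0.19 (SE, edgeR adjusted p = 1.57e-07). Car12 changed by -1.57 ± 0.196 (SE, edgeR adjusted p = 9.84e-07) and Car13 by -1.46 ± 0.24 (SE, edgeR adjusted p = 2.45e-05). For these 3 members each of the 5 wild-type libraries at 14 days lay below each of the 4 at 2 days, as was so for 20.6% of all genes. The estimate for Car9 was -0.22 ± 0.18 (SE, edgeR adjusted p = 0.304), from 121.9 ± 30.8 to 104.3 ± 14.6 CPM.

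The remaining values between times are a description. Car2 and Car14 passed the filter only at the time where each is higher, so they were not counted. Car2 averaged 0.39 ± 0.29 CPM at 2 days and 2.72 ± 2.30 CPM at 14 days on the joint scale, and Car14 0.90 ± 0.59 and 0.21 ± 0.15 CPM. Car4, whose wild-type level at 2 days took part in the choice of the family, stood at 7.17 ± 3.73 CPM at 2 days and 94.1 ± 16.3 CPM at 14 days, a log2 difference of 3.72 ± 0.45 (SE). On this scale the knock-out means of Car4 were 30.3 ± 9.68 and 105.2 ± 65.7 CPM.

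Other measures of the same wild-type libraries are given here, with marker sums in CPM scaled within each time and not on the joint scale. The calls are from the fit of all 18 libraries. The mitochondrial share was 26.1% to 49.1% at 2 days and 6.21% to 26.3% at 14 days, and 16073 to 18291 against 20398 to 26409 genes were detected. Summed stem cell markers were 5823 to 6302 CPM in wild type at 2 days and 2851 to 3865 CPM at 14 days, with 10 of 13 called lower. Goblet markers summed to 513.2 to 685.2 and 1564 to 6562 CPM, with 8 of 10 called higher, and distal colon markers to 107.4 to 126.6 and 347.2 to 628.2 CPM, with 5 of 12 called higher and 1 lower. Enterocyte markers ran from 1732 to 2426 and from 1476 to 7311 CPM, ranges that overlapped, with 5 of 16 called higher and 2 lower. Beside these counts of called markers, 27.7% of all genes were called higher and 25.7% lower in this comparison. Paneth markers summed to 223.4 to 3345 and 2393 to 19790 CPM, tuft markers to 8.46 to 33.4 and 30.3 to 152.3 CPM, and stroma markers to 1.38 to 3.76 and 4.46 to 8.63 CPM. Their part in the family's differences was not tested.

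The 6 other carbonic anhydrases of the genome that were listed, Car5a, Car5b, Car6, Car10, Car11 and Car15, stayed at or under 19 raw counts in every library and none passed the filter within either time. The genes that act with these enzymes at the epithelial surface were examined as a list of 32 transporters and regulators of bicarbonate, chloride and protons. At 14 days 23 passed the filter, 5 with a positive and 18 with a negative fold change and a median of -0.13, and edgeR called 0. Those of smallest p were Slc26a6, a chloride-bicarbonate exchanger, at -0.62 ± 0.23 (SE), the sodium-bicarbonate transporter Slc4a8 at 1.03 ± 0.41 (SE), the lactate carrier Slc16a3 at -1.12 ± 0.52 (SE) and the scaffold Slc9a3r1 at -0.30 ± 0.15 (SE), each with an edgeR adjusted p of 0.957. The first 3 were the ones of the 23 at an unadjusted p under 0.05, a bound met by 3.99% of all genes. At 2 days 14 of 22 had a positive fold change and 0 were called. An unadjusted p under 0.05 was met there by 5 of the 22, all higher, against 4.91% of all genes. Beside Slc26a6 and Slc9a3r1 these were the sodium-proton exchanger Slc9a3 at 2.08 ± 0.57 (SE) and the guanylin genes Guca2a at 0.996 ± 0.39 (SE) and Guca2b at 1.02 ± 0.42 (SE), named after their values were seen. Of the 4 genes named for 14 days 3 had the other sign at 2 days, Slc26a6 at 2.03 ± 0.63 (SE), Slc16a3 at 0.88 ± 1.02 (SE) and Slc9a3r1 at 0.65 ± 0.26 (SE).

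Because Car9 responds to low oxygen, 20 hypoxia response genes were examined beside it. All 20 passed the filter at 14 days, 7 with a positive and 13 with a negative fold change, with a median of -0.14, and edgeR called 0. An unadjusted p under 0.05 was met by 2 of the 20, both lower, against 3.99% of all genes. Pfkfb4, a regulator of glycolysis, had -0.45 ± 0.19 (SE), the peptide hormone gene Adm -0.76 ± 0.32 (SE), Ankrd37 0.53 ± 0.30 (SE) and Bnip3, which acts in mitophagy, 0.84 ± 0.53 (SE), each with an edgeR adjusted p of 0.957. At 2 days 11 of 19 were positive, with a median of 0.10, and edgeR called 0. Of the 19, 1 had an unadjusted p under 0.05, with a positive fold change, against 4.91% of all genes.

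Genes with a pattern like that of Car4 were ranked by the root mean square difference of their log2 CPM deviations from the table mean over the 18 libraries, among 7957 genes. Car4 itself deviated by 0.97 from its table means by this measure. The closest were Khk, the fructose kinase, at 0.51, the lipid acyltransferase Agpat2 at 0.55, the water channel Aqp11 at 0.57, the sialyltransferase St3gal4 at 0.57 and the dehydrogenase Dhrs11 at 0.59, where the median gene stood at 1.02. Their log2 fold changes were 0.78 to 1.655 at 2 days and -0.09 to 0.09 at 14 days. Since Car4 was chosen for its difference at 2 days, that resemblance is a description.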

How the data were processed

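The members and all gene lists were chosen with earlier results of these data known. The authors deposited raw counts for Ensembl gene identifiers, with each time in its own table and libraries as columns. The tools named are bcl2fastq 2.20.0.422 and STAR 2.4.2a and the build is GRCm38, per the submitters' processing notes. No annotation, counting program or strand setting is given in the sources used here, and no molecular identifiers are named, so counts include amplified copies. Column names begin with WT or, for the knock-out, Dko at 14 days and Dmin at 2 days. Dmin was read as Dlg1 minus, and every 2 day comparison rests on it. Libraries were numbered by their place in the table. The labels do not say whether replicates were separate animals, so p-values measure the spread between samples, which may be technical.

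Symbols, positions and exon lengths came from GENCODE (42462 of 43432 identifiers had a symbol). Each time was fitted alone with edgeR 4.0.16 in R 4.3.3 (filterByExpr, minimum count 10, TMM, quasi-likelihood F-test, Benjamini-Hochberg adjustment, threshold 0.05), and wild type at 14 against 2 days in 1 fit of 18 libraries. Standard errors are the absolute log2 fold change over the square root of F. CPM used TMM-scaled totals of the genes kept within each time, except where the scale of the joint fit is named. The exact permutation tests were run on log2(CPM + 0.5). The likeness to Car4 used log2 CPM with a prior count of 2 and genes whose mean log2 CPM was at least 3 in both tables, leaving out symbols of predicted or unnamed models. No 2 libraries were identical. Named genes were the members, the 4 of smallest p at 14 days per pathway list and the 5 most like Car4. Alternatives were RLE factors, no filter, a minimum count of 50, DESeq2 1.42.0, the joint fit, unscaled CPM and leaving out each library, and, added after the data were seen, the letter in the 14 day column names and leaving out both libraries that stood apart. The models were tested on simulated data.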

Additional observations from a re-analysis of the deposited data

How the results depend on the processing

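Over all genes, 0 were called at 14 days by edgeR, 2 without a filter on low counts, 1 by DESeq2, 1 among the libraries with the letter B alone and 0 to 0 with each library left out, and no carbonic anhydrase was among them. At 2 days 0 were called, against 7 without a filter, 17 by DESeq2, 2 in the joint fit and 0 to 1 with each library left out, the 1 being without wild-type library 3. Wild type at 14 against 2 days gave 7660 to 8254 called genes with each library left out. At 14 days 3 members changed sign, none of them called in any alternative. Car2 was 0.12 with the letter B alone and -0.33 to 0.43 with each library left out, Car4 -0.33 with the letter J alone and -0.24 to 0.37, and Car12 0.0508 with the letter J alone and -0.19 to 0.0591. Car8, Car9 and Car13 kept their sign at 14 days in all alternatives run. Between times, Car8, Car12 and Car13 kept their calls and Car9 stayed uncalled in all alternatives run. The cause of these changes was not tested. Depth limits Car1, Car3, Car7 and Car14 at 14 days, which were not fitted there. No paired analysis was possible because the column names carry no replicate number of the labels.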
